A study of Mus musculus with 4 samples.

Results

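Occupancy by Eya1 was examined at the genes of histone lysine methylation enzymes in mouse kidneys at E13.5. The genes were all protein-coding genes of GENCODE M21 with a symbol starting with Kmt2, Kmt5, Kdm, Setd or Nsd, apart from Kdm1a, which left 39 of 21911 genes. Among them were 21 writers (Kmt2, Kmt5, Setd and Nsd genes) and 17 erasers (Kdm genes). The remaining gene, Nsdhl, encodes a sterol dehydrogenase of cholesterol synthesis that shares only the first letters of its symbol with the Nsd methyltransferases. By their known activities, 32 of the 39 act on histone lysines, 16 as writers and 16 as erasers. The other writers by symbol are Kmt2e, Setd3, Setd4, Setd5 and Setd6, SET domain proteins whose main substrates are not histones or are disputed. Kdm8, a JmjC domain hydroxylase, is the eraser by symbol without an agreed histone mark.

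The study immunoprecipitated tagged Eya1 from chromatin of kidneys carrying the Eya1 HA-FLAG knockin allele, in which the endogenous gene encodes a tagged protein and which was kept on a mixed C57BL/6J and 129/Sv background, and sequenced the recovered DNA (ChIP-seq). Each assay pooled 80 kidneys, and the 4 samples were 2 replicates of the Eya1 ChIP, 1 IgG control and 1 of input DNA. The 2 Eya1 peak lists were compared here, and input and IgG were not analysed here. All kidneys were whole organs, but a peak can come only from cells that express the tagged Eya1. The paper describes Eya1 in nephron progenitors, and the lists themselves do not show the cell type behind a peak. The labels number the replicates without saying whether they came from separate litters.

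Writers place methyl groups on lysines of histone tails, mostly through a SET domain, and erasers remove them, through a JmjC domain or, in the Kdm1 group, a flavin-dependent domain. Methylation of H3K4 marks active promoters and enhancers, H3K36 methylation marks transcribed genes, and methylation of H3K9 and H3K27 is found on silent chromatin. Mutations of the human genes for the writer Kmt2d and the eraser Kdm6a cause Kabuki syndrome, in which kidney malformations are common. Eya1 itself is a phosphatase and transcriptional coactivator of nephron progenitors that has no DNA-binding domain of its own.

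A gene was counted as occupied when a listed peak lay within 1 kb of one of its annotated transcription start sites (TSSs). The lists were of like length but not of like peak width, with a median of 1069 bp in replicate 1 and 188 bp in replicate 2, and they merged into 5493 intervals. The lists carry no read counts, scores or p-values, so the depth behind a peak is unknown. Confidence intervals below are exact Clopper-Pearson 95% intervals over genes and cover counting error only. With 2 lists of a single group, no test between conditions was possible, and differences are set against the spread between the lists.

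Promoters of these genes differed widely in CpG density, and 4 of them are shown, 2 CpG-dense and 2 with about the median of 14 CpGs per window over all protein-coding promoters. The printed windows run from 250 bases before to 50 after the start of the gene in RefSeq (GRCm38.p6), 5′ to 3′ on the strand of the gene, with each CpG dinucleotide in capitals. Kmt2c and Kdm4a are the first writer and eraser by symbol that had a peak in both lists and a window in the RefSeq set. Kdm7a and Kdm5d had the most and fewest CpGs around their TSSs among genes with a window. The windows lie at chr5:25498734-25499033 on the minus strand for Kmt2c, chr4:118179994-118180293 (minus) for Kdm4a, chr6:39206724-39207023 (minus) for Kdm7a and chrY:897538-897837 (plus) for Kdm5d.
Kmt2c: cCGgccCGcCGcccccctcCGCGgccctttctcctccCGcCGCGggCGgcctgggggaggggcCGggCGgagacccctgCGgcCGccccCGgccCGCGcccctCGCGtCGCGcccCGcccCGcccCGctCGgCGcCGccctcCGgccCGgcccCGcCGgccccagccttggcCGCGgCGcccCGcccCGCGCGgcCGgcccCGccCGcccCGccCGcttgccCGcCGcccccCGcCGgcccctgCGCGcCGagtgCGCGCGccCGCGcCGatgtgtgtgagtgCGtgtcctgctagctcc
Kdm4a: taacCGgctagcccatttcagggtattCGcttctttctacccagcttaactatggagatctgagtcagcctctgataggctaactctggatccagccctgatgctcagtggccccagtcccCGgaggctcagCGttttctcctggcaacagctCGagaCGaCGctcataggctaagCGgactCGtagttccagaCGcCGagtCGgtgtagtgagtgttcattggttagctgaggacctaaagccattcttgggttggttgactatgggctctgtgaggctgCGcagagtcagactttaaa
Kdm7a: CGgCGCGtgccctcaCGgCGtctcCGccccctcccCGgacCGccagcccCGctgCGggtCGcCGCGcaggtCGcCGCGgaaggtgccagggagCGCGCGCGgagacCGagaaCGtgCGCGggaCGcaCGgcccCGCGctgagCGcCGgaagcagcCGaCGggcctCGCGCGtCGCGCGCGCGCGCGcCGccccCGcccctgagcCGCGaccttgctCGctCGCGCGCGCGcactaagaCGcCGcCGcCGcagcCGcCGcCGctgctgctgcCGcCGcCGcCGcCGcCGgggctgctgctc
Kdm5d: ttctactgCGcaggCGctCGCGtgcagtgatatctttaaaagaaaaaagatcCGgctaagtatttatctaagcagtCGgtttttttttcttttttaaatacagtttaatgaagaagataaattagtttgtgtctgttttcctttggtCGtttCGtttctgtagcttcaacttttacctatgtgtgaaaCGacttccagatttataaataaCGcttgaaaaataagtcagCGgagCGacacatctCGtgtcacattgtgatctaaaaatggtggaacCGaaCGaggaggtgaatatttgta
The Kmt2c window held 56 CpGs and 12 GC boxes (GGGCGG on either strand), and its last bases were covered by both lists, 36 by the replicate 1 peak and 30 by the replicate 2 peak. The Kdm4a window held only 13 CpGs and no GC box, yet all 300 of its bases lay inside the replicate 1 peak. The Kdm7a window held 65 CpGs, and 11 of its bases were covered in replicate 1. The Kdm5d window, on the Y chromosome, held 15 CpGs and no base of it was covered in either list.

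Eya1 peaks were found at 28 of the 39 genes in at least 1 list (71.8%, 95% CI 55.1 to 85.0%), where 23.5% of all protein-coding genes had a peak. They included the 4 H3K36 writers and 7 H3K4 writers among the 39, and the H3K27 erasers Kdm6a, Kdm6b and Kdm7a. Replicate 1 placed a peak at 23 of 39 genes (59.0%, 95% CI 42.1 to 74.4%) against 20.2% of all genes. Replicate 2 also did so at 23 of 39, against 14.7% of all genes, although the genes were not the same in every case. In both lists, 18 genes had a peak (46.2%, 95% CI 30.1 to 62.8%), compared with 11.5% of all genes. An interval covered by both lists lay near 19 of the genes (48.7%), compared with 11.4% of all genes. The additional gene was Kdm6b, whose replicate 2 peak began beyond 1 kb from its TSS but overlapped the replicate 1 peak. Per list the mean was 59.0% ± 0 (SD, n = 2) for the 39 genes and 17.5% ± 3.92 (SD, n = 2) for all genes, so the gap was larger than the spread between the lists. The SD of 0 reflects equal counts of 23 and not the same genes. Replicate 1 alone had a peak at 5 genes and replicate 2 alone at 5 others.

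**Figure D1:**
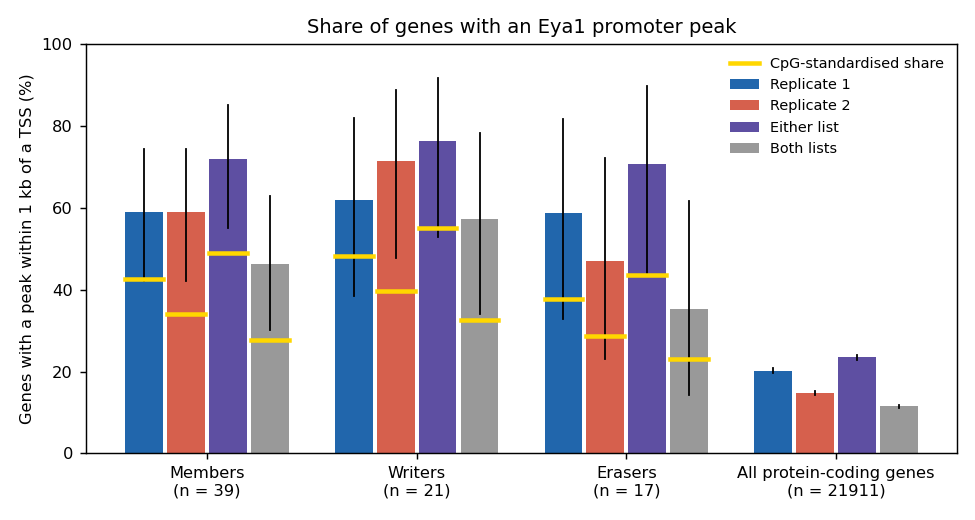
The share of genes with a peak within 1 kb of a TSS (y axis, percent) is plotted for the 39 genes, the writers, the erasers and all protein-coding genes, with 1 bar per list or combination of lists, exact 95% intervals as lines and the share calculated from CpG content as yellow lines. Every bar of the enzymes stands above the yellow line and above the matching bar of all genes, where the either-list bar is 23.5%.

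The 12 writers with a peak in both lists were Kmt2b, Kmt2c, Kmt2d, Kmt2e, Kmt5b, Nsd1, Nsd2, Nsd3, Setd1a, Setd2, Setd3 and Setd5. The 6 erasers with a peak in both were Kdm2a, Kdm3b, Kdm4a, Kdm4c, Kdm5b and Kdm6a. Replicate 1 alone had a peak at 5 genes, the writer Setd1b and the erasers Kdm1b, Kdm3a, Kdm6b and Kdm7a. Replicate 2 alone had a peak at 5 others, the writers Kmt2a, Kmt5a and Setd7 and the erasers Kdm2b and Kdm5a. The 11 genes without a promoter peak were Kmt5c, Setd4, Setd6, Setdb1, Setdb2, Kdm4b, Kdm4d, Kdm5c, Kdm5d, Kdm8 and Nsdhl. Among all genes, 8.75% had a peak in replicate 1 alone and 3.22% in replicate 2 alone, whereas these genes split evenly at 12.8% each.

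Writers were occupied somewhat more often than erasers, but the size of the difference depended on the list. In replicate 1, 13 of 21 writers (61.9%, 95% CI 38.4 to 81.9%) and 10 of 17 erasers (58.8%, 95% CI 32.9 to 81.6%) had a peak. In replicate 2, these were 15 writers (71.4%, 95% CI 47.8 to 88.7%) and 8 erasers (47.1%, 95% CI 23.0 to 72.2%). The difference was thus 3.08 percentage points in replicate 1 and 24.4 in replicate 2. Its mean of 13.7 ± 15.1 points (SD, n = 2) was smaller than the spread between the lists. With the lists combined, 16 writers (76.2%, 95% CI 52.8 to 91.8%) and 12 erasers (70.6%, 95% CI 44.0 to 89.7%) were occupied, and on autosomes alone the order turned, with 11 of 14 erasers (78.6%) against 76.2% of writers. The 3 erasers that drop out there are the X-linked Kdm5c and Kdm6a and the Y-linked Kdm5d.

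The share of all genes with a peak was higher at CpG-rich promoters, at 0% in the CpG-poorest of the bins defined next and 67.9% in the richest, so CpG content was taken into account. CpG dinucleotides were counted in 1 kb centred on the CpG-richest TSS of each gene, and all genes were divided into 20 bins of equal number by this count. The median count was 91 in the 39 genes (range 34 to 172), 106 in writers, 88 in erasers and 49 in all genes. The share calculated from CpG content is the mean, over the enzyme genes, of the share of all genes in the same bin that had a peak. It was 48.9% for either list, 22.9 points under the 71.8% measured. For writers it was 55.2%, and 76.2% were occupied. For erasers it was 43.5%, and 70.6% were occupied, so the gap to CpG-matched promoters was 21.02 points in writers and 27.1 points in erasers. This order depended on the list. In replicate 1 the gap was 13.7 points in writers and 21.1 in erasers, but in replicate 2 it was 31.8 in writers and 18.3 in erasers. Over genes with a peak in both lists it was 24.6 points in writers and 12.3 in erasers, and over shared intervals 25.1 and 18.4 points. For both lists together, the calculated share was 27.7% against the 46.2% measured. In replicate 1 the gap was 16.4 points and in replicate 2 it was 24.97 points. These genes also have more annotated TSSs than others, with medians of 6 and 3, and with bins of both CpG count and TSS number the gap was 20.2 points.

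**Figure D2:**
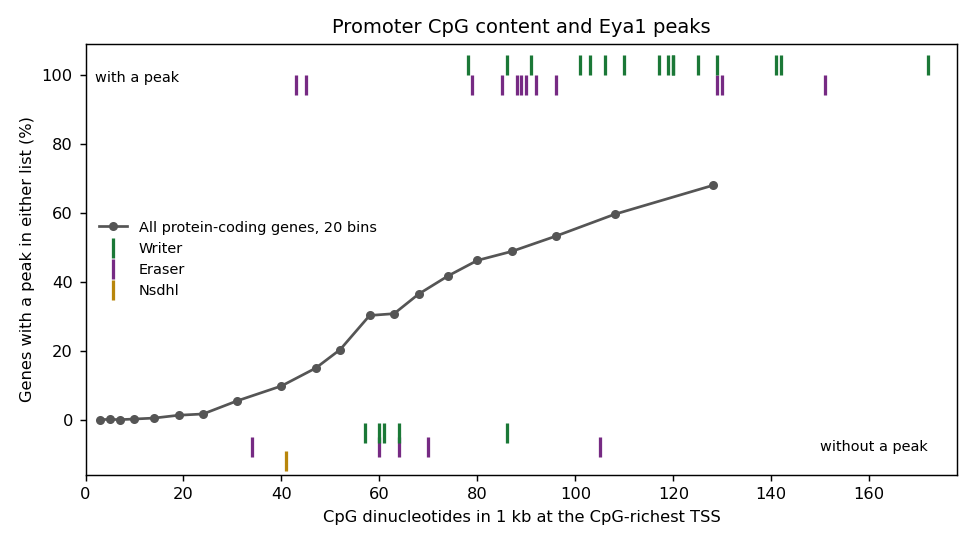
The line gives the share of all protein-coding genes with a peak in either list (y axis, percent) in 20 bins of CpG count in 1 kb at the CpG-richest TSS (x axis), and ticks give the count of each writer, eraser and Nsdhl, with occupied genes at the top and the others at the bottom. Occupied genes reach from 43 CpGs (Kdm6b) to 172 (Nsd2), and those without a peak lie at or below 105.

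In the CpG-richest bin, 67.9% of all genes had a peak, and all 12 of the enzyme genes in it did. These were Kmt2a, Kmt2c, Kmt5a, Kmt5b, Nsd1, Nsd2, Setd1a, Setd2, Setd3, Kdm2a, Kdm2b and Kdm7a. Over the 7497 genes with at least 67 CpGs, the lower quartile of the enzyme genes, 50.9% had a peak, compared with 26 of 29 of the enzyme genes (89.7%). Kdm4b, an H3K9 and H3K36 demethylase with 105 CpGs, and Setd6, a methyltransferase of the NF-kB subunit RelA with 86, were the CpG-rich genes furthest from this pattern, with no peak in either list. In the other direction, Kdm6b and Kdm4a had a peak with only 43 and 45 CpGs, in bins where 9.77% and 15.0% of genes were occupied.

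Among writers of H3K4 methylation, Eya1 peaks were present at 7 of 7 genes, where CpG content gave 58.8%. At 4 of them a peak was present in both lists, where CpG content gave 35.0%. Kmt2a and Kmt2b are the MLL methyltransferases of active promoters. Kmt2b, on chromosome 7, had a replicate 1 peak at chr7:30587786-30589365 and 2 replicate 2 peaks within it, at chr7:30588286-30588477 and chr7:30588573-30588719, the latter over its TSS. At Kmt2a, only replicate 2 had a peak, at chr9:44880916-44881100 with its midpoint in a coding exon, and the nearest replicate 1 peak was 52267 bp away. The related genes thus differed between the lists.

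Kmt2c and Kmt2d encode the enzymes that monomethylate H3K4 at enhancers. At Kmt2c a replicate 1 peak (chr5:25497443-25498769) and a replicate 2 peak (chr5:25498209-25498763) began within 6 bp of each other. They began just upstream of a TSS 81 bp downstream of the first, so both lay inside the gene. At Kmt2d the replicate 1 peak (chr15:98870324-98872399) reached from 1195 bp upstream to 880 bp downstream of the TSS. It held 3 replicate 2 peaks at chr15:98871187-98871542, chr15:98871654-98871899 and chr15:98872019-98872170, with midpoints at -161, -573 and -891 bp from the TSS. Kmt2d was the gene whose replicate 2 peaks all had midpoints outside the gene.

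Setd1a and Setd1b are the catalytic subunits of the COMPASS complexes, which make trimethylated H3K4. Setd1a had a replicate 1 peak at chr7:127776264-127778451 and a replicate 2 peak of 161 bp at chr7:127777145-127777305, in a UTR. Setd1b had a replicate 1 peak of 2466 bp at chr5:123141506-123143971, wider than all but 3.66% of promoter peaks in that list, and its nearest replicate 2 peak was 182288 bp away. Setd7, a monomethyltransferase that also modifies other proteins, had a single replicate 2 peak of 157 bp at chr3:51560019-51560175. That peak began 704 bp downstream of the TSS, which made Setd7 the occupied gene nearest to the 1 kb limit.

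The H3K36 writers Nsd1, Nsd2, Nsd3 and Setd2 all had peaks in both lists (4 of 4), where CpG content gave 43.2% and 11.5% of all genes had them. Nsd1, a dimethyltransferase, had the widest peaks of all the enzyme genes in each list. Its replicate 1 peak spanned 3553 bp (chr13:55209642-55213194), over 7 annotated TSSs, and only 0.544% of promoter peaks in the list were wider. Its replicate 2 peaks lay at chr13:55210662-55210943 and chr13:55211905-55212760, and the latter, of 856 bp, was exceeded by 1.08% of promoter peaks. Setd2, the main enzyme for H3K36 trimethylation, had peaks at chr9:110532445-110533807 and chr9:110532548-110533379, and the latter, of 832 bp in replicate 2, was exceeded by 1.30%. Nsd2 had a replicate 1 peak at chr5:33820768-33821822 and replicate 2 peaks at chr5:33820774-33821125 and chr5:33821220-33821461. Nsd3 had a replicate 1 peak of 2113 bp (chr8:25601420-25603532) and replicate 2 peaks at chr8:25602463-25602765 and chr8:25602828-25602961. At each of these 4 genes the replicate 1 peak covered a TSS.

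Of the H3K9 writers taken in by the symbol rule, Setdb1 and Setdb2, 0 of 2 were occupied. Setdb1, which silences endogenous retroviruses, had its nearest peaks 40802 bp away in replicate 1 and 41294 bp in replicate 2. Setdb2 had its nearest peaks 156504 and 208141 bp away. Their CpG counts were 61 and 64, in a bin where 30.8% of all genes had a peak, and 2 genes are too few to be set apart from that background.

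Of the H4K20 writers, 2 of 3 were occupied, where CpG content gave 55.4%. Kmt5b had a replicate 1 peak at chr19:3767193-3768741, over 12 annotated TSSs, and short replicate 2 peaks at chr19:3767615-3767741 and chr19:3768384-3768506. Kmt5a, the monomethyltransferase of the cell cycle, had a replicate 2 peak of 232 bp at chr5:124445738-124445969, over an internal TSS 5854 bp downstream of the first. Kmt5c, which like Kmt5b makes di- and trimethylated H4K20, had its nearest peaks 46989 bp away in replicate 1 and 65818 bp away in replicate 2.

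SET domain proteins without an agreed histone substrate were occupied at 3 of 5 genes, each in both lists, where CpG content gave 28.0% for both lists. Setd5 had a replicate 1 peak of 3356 bp (chr6:113075542-113078897), exceeded by 0.643% of promoter peaks, and a replicate 2 peak of 745 bp (chr6:113077451-113078195), exceeded by 1.95%. Kmt2e, also called MLL5, had a replicate 1 peak of 3371 bp (chr5:23432468-23435838), exceeded by 0.619%, and replicate 2 peaks at chr5:23433907-23434308 and chr5:23434533-23434971 on either side of the TSS. Setd3, the actin histidine methyltransferase, had peaks at chr12:108178273-108179312 and chr12:108178657-108179247, within 1 kb of a TSS of the neighbouring gene Ccnk on the opposite strand, so they cannot be assigned to 1 of the 2. Setd4 and Setd6 had none, with nearest replicate 1 peaks 228096 and 89355 bp away.

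**Figure D3:**
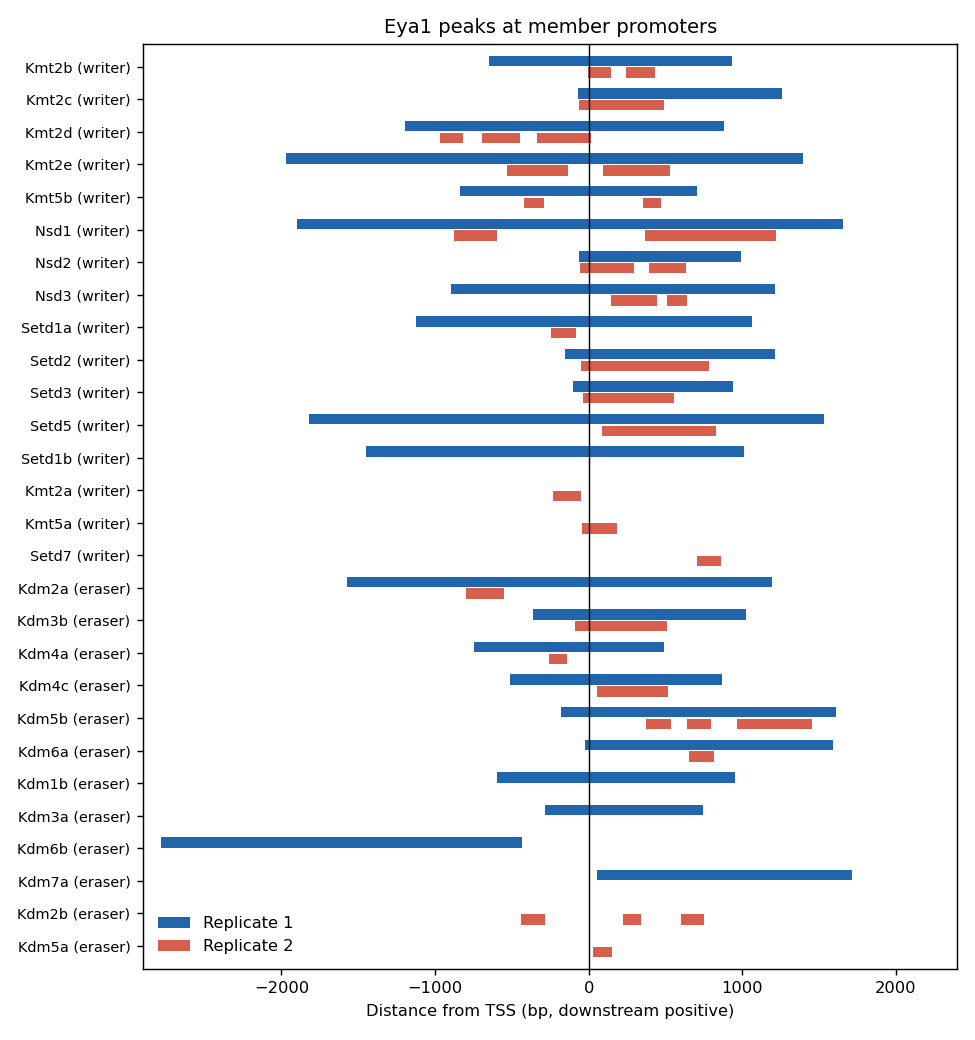
Peaks of replicate 1 (blue) and replicate 2 (red) are drawn to scale against distance in bp from 1 TSS per gene, the one nearest the midpoint of its widest peak in replicate 1 (or in replicate 2 where there is none), for the 16 writers and 12 erasers with a peak. At the 18 genes with both colours the red peaks lie inside a longer blue peak, which at Nsd1 is 3553 bp long.

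Erasers of H3K4 methylation were occupied at 3 of 5 genes, where CpG content gave 37.1%. Kdm5b, an H3K4 demethylase, had a replicate 1 peak at chr1:134560024-134561814 and 3 replicate 2 peaks, at chr1:134560583-134560745, chr1:134560844-134561006 and chr1:134561173-134561659, all downstream of the TSS. Its paralogue Kdm5a had a replicate 2 peak alone, of 123 bp in a UTR at chr6:120364486-120364608, where the opposite-strand gene Ccdc77 also has a TSS within 1 kb. Kdm1b, a flavin-dependent demethylase known from oocytes, had a replicate 1 peak at chr13:47042976-47044521, which it likewise shared with an opposite-strand gene, Tpmt. Kdm5c and Kdm5d, the X- and Y-linked members of the Kdm5 group, had no peak.

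The sex chromosomes carried few peaks at all, which touches 4 of the 39 genes. Replicate 1 listed 25 peaks on X and replicate 2 listed 11, and neither list had a peak on Y. Of 948 protein-coding X genes, 24 had a promoter peak (2.53%), against 24.6% of autosomal genes. Kdm6a, the X-linked H3K27 demethylase also called UTX, was among the 24, with a replicate 1 peak at chrX:18162623-18164235 and a replicate 2 peak at chrX:18163300-18163463. The X-linked H3K4 eraser Kdm5c lay 1226307 bp from the nearest replicate 1 peak, and Nsdhl 412732 bp. The part of the chromosome in the absence of peaks at Kdm5c, Kdm5d and Nsdhl was not tested.

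The H3K27 erasers had peaks at 3 of 3 genes, where CpG content gave 42.2%, although Kdm6a was the only one with a counted peak in both lists. Kdm6b, also called JMJD3, had a replicate 1 peak of 2351 bp at chr11:69414111-69416461, wholly upstream of the gene with its near edge 436 bp from the TSS. A replicate 2 peak lay inside it at chr11:69415804-69416013, 2129 bp from the TSS, the nearest miss of the 1 kb limit among these genes. A second replicate 2 peak at chr11:69410781-69411033 lay in the body of Kdm6b, 2642 bp from a TSS. It was the only peak of either list within any of the 39 genes and beyond 1 kb of every annotated TSS, including those of other genes. Kdm7a, which removes H3K9 and H3K27 methylation, had a replicate 1 peak at chr6:39205076-39206734 that began 55 bp downstream of the TSS.

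Of the H3K9 erasers, 4 of 6 were occupied, where CpG content gave 43.4%. Kdm3a had a replicate 1 peak at chr6:71631939-71632970 and its nearest replicate 2 peak was 97363 bp away. Its paralogue Kdm3b had peaks in both lists, chr18:34776741-34778129 and chr18:34777018-34777616, and the latter, of 599 bp, was exceeded by 4.58% of replicate 2 promoter peaks. The Kdm4 group, whose JmjC enzymes remove H3K9 and in part H3K36 methylation, divided evenly.

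Kdm4a had a replicate 1 peak at chr4:118179167-118180400 and a replicate 2 peak of 117 bp at chr4:118179795-118179911, which is the minimum width in that list. Kdm4c had peaks at chr4:74251424-74252802 and chr4:74251992-74252454, both at an internal TSS 9439 bp downstream of the first. Kdm4b and Kdm4d had their nearest replicate 1 peaks 81390 and 113143 bp away. Kdm8 was also without a peak, at 262128 bp.

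Both H3K36 erasers, which bind CpG islands through a CXXC domain, were occupied, in a bin where 67.9% of all genes were. Kdm2a had a replicate 1 peak of 2771 bp (chr19:4395900-4398670), exceeded by 1.88% of promoter peaks, and a replicate 2 peak of 249 bp (chr19:4397645-4397893). Kdm2b, which recruits Polycomb complexes, had 3 replicate 2 peaks (chr5:122899603-122899755, chr5:122900013-122900130 and chr5:122900639-122900797). They surrounded an internal TSS 89468 bp downstream of the first, and the nearest replicate 1 peak was 101038 bp away. With the first TSS of each gene alone, Kdm2b, Kdm4c and Kmt5a were no longer counted, and 25 of 39 genes (64.1%) were occupied against 21.5% of all genes.

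Peaks at these genes had a larger median width than at promoters in general, in each list. The promoters were not matched for CpG content or TSS number here. In replicate 1 the 23 peaks had a median of 1613 bp (range 1032 to 3553 bp), and the 4041 promoter peaks of the list a median of 1099 bp. In replicate 2 the 35 peaks had a median of 232 bp (range 117 to 856 bp), and the 3534 promoter peaks a median of 199 bp. The lower quartiles in replicate 2 were 155 and 147 bp, and the upper quartiles 420.5 and 304.8 bp. Nsd1, Kmt2e and Setd5 had the widest replicate 1 peaks, and Nsd1, Setd2 and Setd5 the widest replicate 2 peaks, so Nsd1 and Setd5 were in the top 3 of both.

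**Figure D4:**
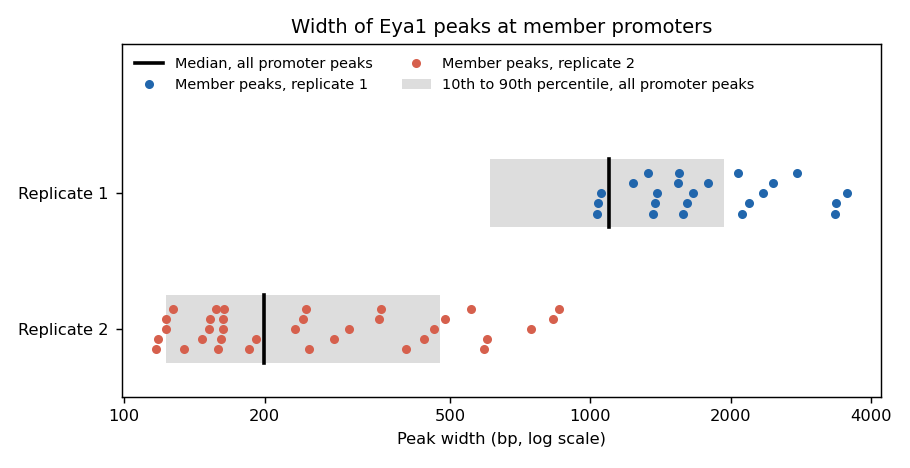
Each point is the width in bp (x axis, log scale) of 1 peak at a writer or eraser in replicate 1 or replicate 2, over a grey band from the 10th to the 90th percentile of all promoter peaks of that list and a black line at their median. Most replicate 1 points lie right of the black line at 1099 bp, while replicate 2 points spread on both sides of the line at 199 bp.

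More than 1 replicate 2 peak lay at 9 of 23 occupied genes (39.1%), compared with 18.4% of the 3222 genes occupied in that list, not matched for CpG content or TSS number. These were Kmt2b, Kmt2d, Kmt2e, Kmt5b, Nsd1, Nsd2, Nsd3, Kdm2b and Kdm5b. In replicate 1 no enzyme gene had more than 1 peak, against 3.99% of occupied genes. At all 18 genes with a peak in both lists the peaks overlapped, as they did at 98.7% of the 2517 such genes in the genome, and every replicate 2 peak there lay wholly inside the longer replicate 1 peak. Peak midpoints lay within 250 bp of a TSS for 13 of 23 replicate 1 peaks (56.5%, against 64.0% of all promoter peaks). For replicate 2 this was 15 of 35 peaks (42.9%, against 66.1% of all promoter peaks), with Setd7, Kdm6a and the outer Kdm5b and Kmt2d peaks among those further away. At the enzyme genes, midpoints were measured to TSSs of that gene only. All promoter peaks were those within 1 kb of a TSS of any annotated gene, so these percentages are not strictly alike.

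RefSeq promoter windows were found for 28 of the 39 genes, 18 of them occupied. Motifs were searched over the whole window and not under the peaks. Replicate 1 peaks covered 36 bases of the window at Kmt2c, 11 at Kdm7a and all 300 at Kdm4a. The motif shares thus describe promoter windows and not the sequence under Eya1 peaks. No window was found for Kmt2b, Kmt2e, Setd1b, Nsd1, Nsd2, Nsd3, Kdm2a, Kdm3b, Kdm4b, Kdm5a and Kdm6b. A GC box was present in 17 of 28 (60.7%) and in 48.0% of 16522 protein-coding promoters. Among occupied genes it was present in 12 of 18 (66.7%), and in 72.0% of all promoters with a peak. The ETS core CGGAAG was present in 9 of 28 (32.1%, against 22.2% of all promoters) and in 3 of the 18 occupied genes, namely Kdm5b, Kdm7a and Kmt5b (16.7%, against 34.7% of all promoters with a peak). CCAAT was present in 12 of 28 (42.9%, against 38.7%), including the printed Kdm4a window. Among occupied genes it was present in 4 of 18 (22.2%, against 37.3% of all promoters with a peak).

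Other letters were rare in these windows. TGACGT, the core of the cAMP response element, was found in Kdm4d and Kdm5b (2 of 28, against 8.99% of all promoters). The E-box CACGTG was found in Kdm6a alone (8.11% of all promoters), the YY1 sequence AAGATGGC in Kdm5c alone (3.29%), and the NRF1 sequence GCATGCGC in none (3.76%). The sequence TCANGTTTC, recognised by sine oculis homeobox factors such as Six2, was in 0 of 28 and in 1.04% of all promoters. The parts CAGCACC and GGACAG of the RE1 element, with 2 bases between them and at most 2 mismatches, were in 0 of 28 and in 2.03% of all promoters. All were searched on both strands, and GC boxes and ETS cores may overlap CpGs shown in capitals.

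Other enzymes of histone lysine methylation, outside the symbol rule, were counted in the same way. Of 18 further writers, 9 had a peak in at least 1 list (50.0%, 95% CI 26.0 to 74.0%), where CpG content gave 42.7%. Over all genes this share was 23.5%. In replicate 1 it was 50.0% for these writers, where CpG content gave 37.3%, and in replicate 2 it was 22.2%, where CpG content gave 29.7%. With a peak in both lists there were 4 (22.2%, where CpG content gave 24.3%), against 11.5% of all genes. These were the H3K9 writers Ehmt1 and Ehmt2, the H3K36 writer Ash1l and Setmar. Replicate 1 alone had peaks at Dot1l, which methylates the globular part of histone H3, at Ezh2, the catalytic subunit of PRC2, and at Smyd5, Prdm2 and Mecom. Of 8 further erasers, 3 were occupied, each in both lists, namely Kdm1a, Phf2 and Jmjd1c (37.5%). CpG content gave 42.1% for either list and 23.6% for both lists.

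Of 12 subunits of the COMPASS and MLL complexes, 7 were occupied in at least 1 list (58.3%, 95% CI 27.7 to 84.8%; CpG content gave 43.6%), but only Ncoa6 in both. Men1, Hcfc1, Cxxc1, Wdr82 and Psip1 had replicate 1 peaks alone, and Ash2l a replicate 2 peak alone. The core subunits Wdr5, Rbbp5 and Dpy30 had none. The share with a peak in both lists was thus 8.33% (95% CI 0.211 to 38.5%), where CpG content gave 22.8% and 11.5% of all genes had one. The difference over these 12 genes was not tested.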

How the data were processed

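Eya1 ChIP-seq peaks from E13.5 kidneys were analysed as 2 peak lists, grouped and numbered by sample title. Per the study's methods, the authors aligned reads to mm10 with Bowtie and called peaks with MACS at various cutoffs against input or IgG, while the submitters' processing notes name HISAT2 and mm10. The deposited lists, called per replicate, give chromosome, start and end only. Which control and cutoff each list used is not given in the sources used here.

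Genes and TSSs were from GENCODE M21, and symbols were counted once. A peak was assigned to a gene when its interval lay within 1 kb of any annotated TSS of that gene, so a peak between neighbouring genes counted for both. Peak positions are printed 1-based in mm10. CpGs were counted in 1000 bp windows of the GRCm38 reference. CpG-matched shares were obtained by direct standardisation over 20 bins, in which the enzyme genes themselves are included. Lists were intersected at a minimum of 1 bp and merged into 5493 intervals, 2424 of them covered by both. Computation was in Python 3.11.15 with pysam 0.24.0, scipy 1.17.1, pandas 2.3.3 and numpy 2.4.6. Figures used matplotlib 3.10.9, and bedtools 2.31.1 gave a check of the overlaps. Distances and standardisation were tested on simulated data with known answers.

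The enzyme genes, the lists of further enzymes and complex subunits, and the rules for naming genes were chosen with earlier results of these data known. Every gene of the set is named with its class. Peak positions are given for genes with a peak in each list and, beyond that rule, for those with a peak in 1 list. Genes without a peak are given with the distance to the nearest one. The promoters printed are the first writer and eraser by symbol with peaks in both lists and those with the highest and lowest CpG count. Alternatives covered the TSS distance, the TSS set, peak midpoints, peak width, the gene set, autosomes, the CpG bins, the overlap rule and leaving out each list.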

Additional observations from a re-analysis of the deposited data

How the results depend on the processing

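The 8 values followed under other settings were recomputed 73 times, and 69 stayed on the same side and within the limits set for them. These limits were wide, so the tally is not a measure of stability. The eraser share counted as within them when it fell from 70.6% to 47.1% with overlap of a TSS. The number of genes with a peak in both lists did so when it fell from 18 to 12 with the wider peaks. On autosomes only, the writers minus erasers difference turned to -2.38 points, because the 3 sex-linked erasers are left out by construction. Requiring a peak to overlap a TSS lowered the number of genes with a peak in both lists from 18 to 10. Requiring 50% of both peaks to be covered lowered the genes with a shared interval from 19 to 2, since replicate 2 peaks are much shorter. Leaving out a list moved the writers minus erasers difference between 3.08 and 24.4 points, the higher value being that without replicate 1. From 5.6 points with both lists, it also moved to 0.84 points within 500 bp and 11.5 with peak midpoints. It was 12.6 points with the first TSS alone, 13.7 with the wider peaks and 19.6 with overlap of a TSS. These values kept the same direction and lay no further from 5.6 than the SD between the lists, 15.1 points. The value of 19.6 was itself larger than that SD. Leaving out each list in turn gave a range of 47.1 to 58.8% for erasers and 61.9 to 71.4% for writers. The gap to the CpG-matched share was then 16.4 to 24.97 points. Over all settings that gap ranged from 16.1 points, with overlap of a TSS, to 29.7 points, with CpGs counted at the first TSS of each gene. The mean of the median peak widths, 922.5 bp, became 1613 bp with replicate 1 alone and 232 bp with replicate 2 alone. Both widths counted as within the limits because the limit was the SD between the lists, 976.5 bp. Neither list alone can lie further than that from their mean, so leaving out a list could not test the width.

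No paired analysis was possible because the only lists analysed here are those of 1 group, and input and IgG were not analysed here. The lists carry no scores, so a gene without a peak may lie under an unknown limit of detection. Shares over 17 to 39 genes have wide intervals, and differences of the size seen between writers and erasers were not resolved.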
